A study of Mus musculus with 16 samples.

Results

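The miR-17/92 and miR-106b/25 clusters are a pair of related microRNA (miRNA) clusters, and 6 of their mature products are described here. They are mmu-miR-17-5p, mmu-miR-18a-5p, mmu-miR-20a-5p and mmu-miR-92a-3p from miR-17/92, and mmu-miR-93-5p and mmu-miR-25-3p from miR-106b/25, written below without the species prefix. They were taken by name from the 1978 mature miRNA names counted in 16 small RNA libraries of mouse blastocyst fragments, and all 6 were among the 102 names with enough counts to be tested. Laser pulses had separated each blastocyst into a polar piece with the inner cell mass and a mural trophectoderm piece. Each piece was sequenced from blastocysts diapaused in vivo and collected at EDG 7.5 (n = 3 libraries per piece), from blastocysts given an inhibitor of mTOR (mTORi, n = 3 per piece, no day given) and from unpaused WT blastocysts of embryonic day 4.5 (n = 2 per piece). The sources used here give no strain, no name or dose of the inhibitor and no number of embryos per library. Age and pausing cannot be told apart in these groups, and p-values measure the spread between these libraries, which may be technical. The series addresses how miRNA levels differ when the blastocyst pauses, naturally or through mTOR inhibition.

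A miRNA cluster is transcribed as a single primary transcript, from which the individual hairpins are cut and then loaded as mature strands into Argonaute, where the seed, the bases near the 5′ end, pairs with target mRNAs and lowers their output. The miR-17/92 cluster is a target of Myc and E2F factors and is known for driving proliferation and blocking apoptosis, and its loss kills mice around birth. The miR-106b/25 cluster is its paralog inside the gene Mcm7, which encodes a DNA replication helicase subunit, and is dispensable in mice unless miR-17/92 is lost as well. In diapause the blastocyst delays implantation and its cell division slows or stops, reversibly, and mTOR is the kinase that couples nutrients to growth.

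The 6 mature strands fall into 3 seed families, which is why their sequences are shown first. The sequences are those of RefSeq (build GRCm38.p6), written 5′ to 3′ with the seed, bases 2 to 8, in capitals. Strands with the seed AAAGUGC, whose known targets include the cell cycle inhibitor p21 and the proapoptotic Bim, are the first 3 below. The seed of miR-18a-5p differs from it at a single base, and miR-92a-3p and miR-25-3p share a seed of another kind.
miR-17-5p: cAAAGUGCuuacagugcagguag
miR-20a-5p: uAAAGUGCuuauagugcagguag
miR-93-5p: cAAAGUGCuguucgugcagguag
miR-18a-5p: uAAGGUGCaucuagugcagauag
miR-92a-3p: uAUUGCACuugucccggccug
miR-25-3p: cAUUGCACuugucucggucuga

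Counting positions from 1 at the 5′ end, miR-17-5p and miR-20a-5p differ by C1U and C12U over 23 positions, and miR-17-5p and miR-93-5p by U10G, A11U, C12U and A13C. The strands miR-92a-3p and miR-25-3p differ over 21 positions by U1C, C14U and C18U. Of the 1679 counted names with a RefSeq sequence, 7 (0.417%) carry AAAGUGC, and miR-17-5p, miR-20a-5p and miR-93-5p hold 88.6% of the 901 counts on that seed. The seed AUUGCAC is carried by 6 names (0.357%), and miR-92a-3p with miR-25-3p holds 89.3% of its 1050 counts. The 6 strands therefore make up most of what was counted on these seeds.

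In GRCm38 the miR-17/92 hairpins lie within 836 bases of the plus strand of chromosome 14, in an exon of the long noncoding RNA gene Mir17hg (Mir17 at chr14:115043671-115043754, Mir92-1 at chr14:115044427-115044506). The miR-106b/25 hairpins span 498 bases of the minus strand of chromosome 5 inside Mcm7. Mir93 (chr5:138165523-138165610) and Mir25 (chr5:138165321-138165404) are separated by 118 bases and overlap an exon only of a retained-intron transcript. The mature miR-92a-3p is also encoded by Mir92-2 on chromosome X, in the paralogous miR-106a/miR-363 cluster, so its counts cannot be assigned to 1 locus. The other counted products of that X-linked cluster gave 4 counts in all libraries, from 2 of 10 names.

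Library totals ran from 1744 to 20051 counts, with 9049 to 14500 in polar diapaused, 12607 to 20051 in mural diapaused, 2184 to 3501 in polar mTORi, 3490 to 4386 in mural mTORi, 1744 to 4940 in polar WT and 6435 to 8366 in mural WT libraries. Strands linked to particular tissues were counted in the labelled pieces. The pluripotency-linked miR-302/miR-367 strands had 15 counts in polar diapaused, 2 in polar mTORi and 14 in polar WT libraries, and 0 in the 8 mural libraries. As shares of each library they were 0.0210% to 0.0884% in polar diapaused, 0% to 0.0916% in polar mTORi and 0.142% to 0.401% in polar WT libraries. The share was thus highest in polar WT libraries, on few counts, and its bearing on the members was not tested. The miR-322/miR-503 strands held 0.344% to 1.92% of polar and 2.63% to 7.48% of mural counts. They were chosen as mural strands from an earlier account of these same data, so their higher mural share is no check of the labels. Strands of stratified epithelium made up 25.8% of polar mTORi replicate 3, and strands of blood cells 2.67% of polar WT replicate 2. The part of either in the results below was not tested, and values without those libraries are given where they end a call.

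The 6 members had 1818 of the 122251 counts in the series. By total count miR-92a-3p led with 713, followed by miR-93-5p with 377, miR-25-3p with 225, miR-20a-5p with 217, miR-17-5p with 204 and miR-18a-5p with 82. Levels are given as counts scaled to a library of 1000000 tested counts (CPM) after TMM scaling, which corrects for differences in library composition. By mean CPM miR-92a-3p ranked 28 of the 102 tested names and miR-18a-5p ranked 97, so the members range from moderate to scarce in these libraries. In fragments of this kind, fewer cells of a type and less RNA per cell cannot be told apart.

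**Figure D1:**
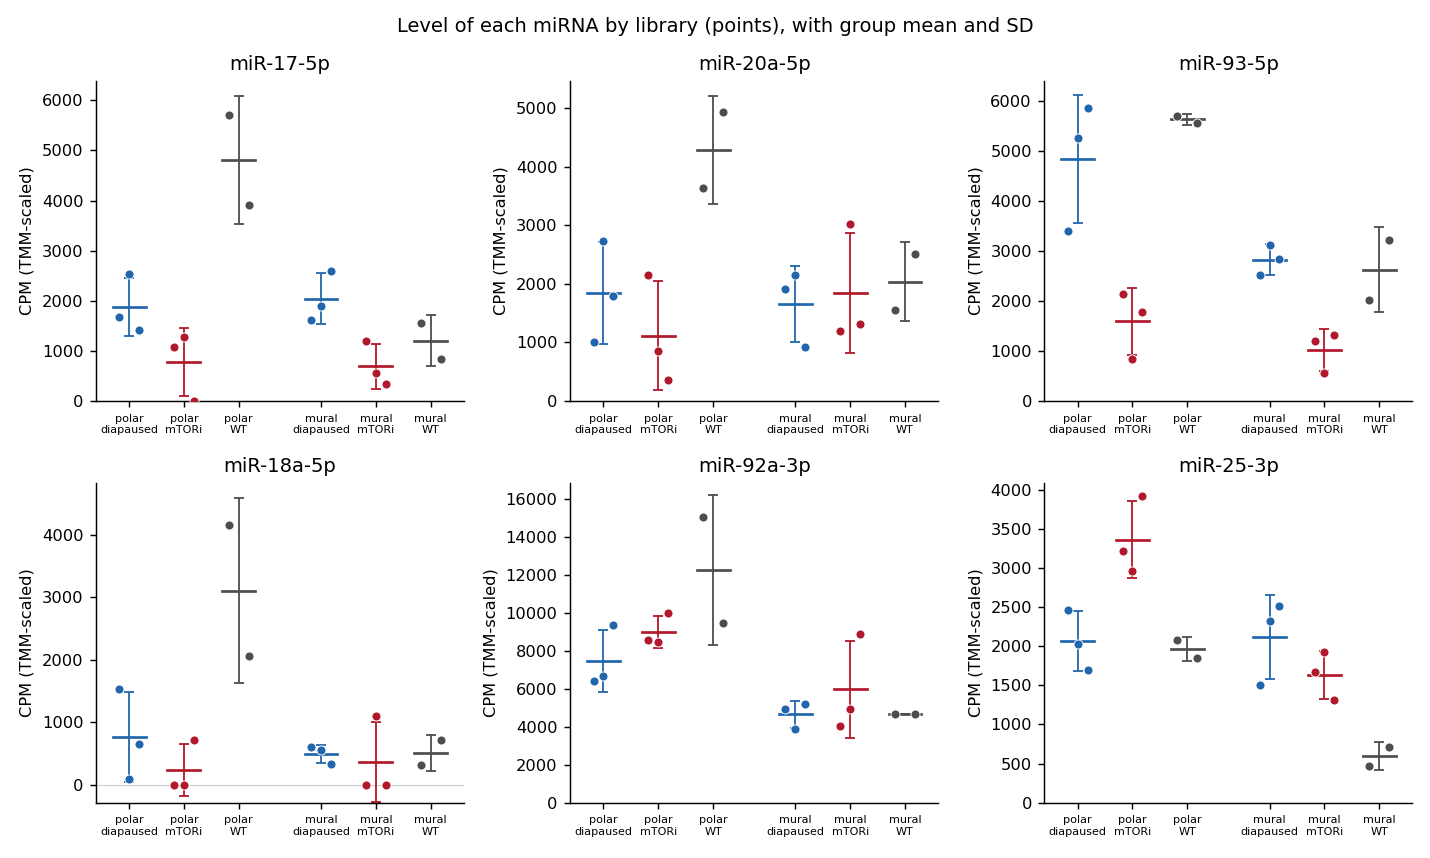
CPM of each member (vertical axes, linear, TMM-scaled) in every library (points), for polar groups on the left and mural groups on the right of each panel. Horizontal lines are group means and bars are 1 SD (n = 3 diapaused, 3 mTORi, 2 WT). The mTORi points of miR-93-5p lie below all diapaused and WT points of the same piece, whereas those of miR-25-3p do not.

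Of the AAAGUGC strands, miR-93-5p, which is known to promote reprogramming to pluripotency, had the highest total count. In polar fragments it measured 3397, 5265 and 5858 CPM in diapaused, 2146, 846 and 1781 CPM in mTORi and 5709 and 5559 CPM in WT libraries. In mural fragments it measured 2511, 3125 and 2849 CPM in diapaused, 1193, 549 and 1315 CPM in mTORi and 2025 and 3229 CPM in WT libraries. All mTORi libraries were lower than every diapaused and WT library of the same piece. The founding member miR-17-5p measured 1665, 2531 and 1417 CPM in polar diapaused, 1073, 1269 and 0 CPM in polar mTORi and 5709 and 3912 CPM in polar WT libraries. In mural fragments it measured 1607, 1899 and 2598 CPM in diapaused, 1193, 549 and 329 CPM in mTORi and 1558 and 837 CPM in WT libraries. A count of 0, as in polar mTORi replicate 3, allows up to 1069 CPM at that depth (3 counts), and the other polar mTORi libraries each rest on only 3 counts, so a difference among the 3 is not shown.

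The third AAAGUGC strand, miR-20a-5p, measured 999, 2734 and 1795 CPM in polar diapaused, 2146, 846 and 356 CPM in polar mTORi and 3633 and 4941.5 CPM in polar WT libraries. Its mural levels were 1908, 2144 and 922 CPM in diapaused, 1193, 3019.6 and 1315 CPM in mTORi and 1558 and 2511 CPM in WT libraries. Only the polar WT libraries stood clear of the other groups. The rarest member, miR-18a-5p, had 1532, 101.2 and 661 CPM in polar diapaused, 0, 0 and 712.5 CPM in polar mTORi and 4152 and 2059 CPM in polar WT libraries. In mural fragments it had 603, 551 and 335 CPM in diapaused, 0, 1098 and 0 CPM in mTORi and 312 and 717.5 CPM in WT libraries. Its 4 zero counts allow 716 to 1269 CPM, which is above the level in several other libraries, and only the polar WT libraries exceeded all others. It had enough counts to be tested only through the polar WT libraries. Its excess there, and its differences from polar WT libraries given below, follow in part from that selection.

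Within the AUUGCAC pair, miR-92a-3p measured 6394.5, 6682 and 9353 CPM in polar diapaused, 8584, 8459 and 9975 CPM in polar mTORi and 15051 and 9471 CPM in polar WT libraries. In mural fragments it measured 4921, 3860.0 and 5195 CPM in diapaused, 4058, 4941 and 8878 CPM in mTORi and 4673.5 and 4664 CPM in WT libraries. Mural groups overlapped, and polar libraries exceeded mural libraries of the same treatment in diapaused and WT blastocysts. Its seed partner miR-25-3p measured 2465, 2025 and 1701 CPM in polar diapaused, 3219, 2961 and 3919 CPM in polar mTORi and 2076 and 1853 CPM in polar WT libraries. In mural fragments it measured 1506.5, 2328 and 2514 CPM in diapaused, 1671, 1922 and 1315 CPM in mTORi and 467 and 717.5 CPM in WT libraries. The mural WT libraries were the lowest of the series, and the polar mTORi libraries the highest.

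The order of the members differed between groups. The highest mean was that of miR-92a-3p in all 6 groups, and its libraries did not overlap those of the next member. In both diapaused and both WT groups the next was miR-93-5p. In polar mTORi libraries the next was miR-25-3p, at 3366 ± 496 CPM, clear of miR-93-5p at 1591 ± 671 CPM (SD, n = 3). In mural mTORi libraries miR-20a-5p, miR-25-3p, miR-93-5p, miR-17-5p and miR-18a-5p followed in that order, each overlapping the one before. In polar WT libraries miR-25-3p was the lowest of the 6, at 1965 ± 158 CPM (SD, n = 2), although its libraries overlapped those of miR-18a-5p.

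The comparison of mTORi with WT blastocysts asks how the clusters stand when pausing is induced through mTOR. Averaged over both pieces, miR-93-5p and miR-17-5p fell and miR-25-3p rose in mTORi libraries. In polar fragments alone miR-17-5p and miR-93-5p fell, and in mural fragments no member passed the test. The most abundant member, miR-92a-3p, averaged 9006 ± 841 CPM in polar mTORi and 12261 ± 3946 CPM in polar WT libraries, a difference of -0.42 on the log2 scale (SE 0.40, edgeR adjusted p = 0.467).

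In the average over both pieces, the log2 difference of mTORi over WT was -1.58 for miR-93-5p (SE 0.36, edgeR adjusted p = 0.00379), a level 2.99-fold lower. That call held in all 17 other fits, where the adjusted p was at most 0.0328. For miR-17-5p the log2 difference was -1.65 (SE 0.53, edgeR adjusted p = 0.027), and for miR-25-3p it was 1.11 (SE 0.37, adjusted p = 0.0313), a level 2.16-fold higher. These 3 called members stand against 32.4% of all tested names called in the same comparison, 15.7% higher and 16.7% lower. The miR-25-3p call was lost in 10 of its 17 other fits, among them each fit without 1 of the WT libraries (log2 differences of 0.96 to 1.43 over all fits, adjusted p up to 0.583). The miR-17-5p call was lost in 8 of its 17 other fits, with log2 differences of -1.99 to -1.13 and an adjusted p up to 0.107. Below the threshold, miR-20a-5p differed by -1.05 (SE 0.48, adjusted p = 0.101) and miR-18a-5p by -1.98 (SE 0.97, adjusted p = 0.11), and the difference of miR-92a-3p was smaller than its standard error. Without polar mTORi replicate 3 the miR-17-5p difference was -1.13 (edgeR adjusted p = 0.0867), and without polar WT replicate 2 it was -1.78 (adjusted p = 0.0558) and that of miR-25-3p 1.08 (adjusted p = 0.116).

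In polar fragments miR-17-5p averaged 781 ± 683 CPM in mTORi and 4811 ± 1271 CPM in WT libraries (SD, n = 3 and 2). The log2 difference was -2.60 (SE 0.74, edgeR adjusted p = 0.0188), a level 6.05-fold lower. For miR-93-5p the mean was 1591 ± 671 CPM in polar mTORi libraries (SD, n = 3), against 5709 and 5559 CPM in the 2 polar WT libraries, which is -1.79 on the log2 scale (SE 0.51, edgeR adjusted p = 0.0188). The 2 calls, both lower, compare with 22.5% of tested names called and 9.8% called lower. Every polar mTORi library was below every polar WT library for miR-17-5p, miR-18a-5p, miR-20a-5p and miR-93-5p, as for 23.5% of tested names, and above for miR-25-3p, as for 21.6%. The median log2 difference was -1.87 over the 6 members and 0.18 over all tested names. The members' median includes miR-18a-5p, which was tested only through its polar WT counts.

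The remaining polar members did not pass the edgeR test with TMM scaling. For miR-18a-5p, 2 counts in mTORi against 18 in WT libraries gave a ratio of scaled counts of 0.0946 (exact 95% interval 0.0107 to 0.395, counting error only; edgeR adjusted p = 0.0687). For miR-20a-5p the log2 difference was -1.94 (SE 0.71, adjusted p = 0.0549), and for miR-25-3p it was 0.79 (SE 0.50, adjusted p = 0.255). DESeq2 called miR-18a-5p and miR-20a-5p lower as well, 4 members in all, and RLE or library size scaling called miR-20a-5p lower, 3 members in all. Since miR-18a-5p was tested only through its polar WT counts, its lower mTORi level follows in part from that selection. Without polar mTORi replicate 3, the library with the epithelial strands and no miR-17-5p count, the log2 difference was -1.75 for miR-17-5p (edgeR adjusted p = 0.0812) and -1.62 for miR-93-5p (adjusted p = 0.0701), and neither was called. Without polar WT replicate 2, the library with the blood strands, it was -2.81 for miR-17-5p (adjusted p = 0.0802) and -1.73 for miR-93-5p (adjusted p = 0.103). Without either polar WT library, no member was called there.

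In mural fragments miR-93-5p averaged 1019 ± 412 CPM in mTORi and 2627 ± 851 CPM in WT libraries, and miR-25-3p averaged 1636 ± 305 CPM in mTORi and 592 ± 177 CPM in WT libraries (SD, n = 3 and 2). The log2 differences were -1.37 for miR-93-5p (SE 0.51) and 1.43 for miR-25-3p (SE 0.54), each with an edgeR adjusted p of 0.0894. These were the only 2 members without overlap between the groups, with 24.5% of tested names all below and 20.6% all above. The count of called members was 0, with 2 members at an unadjusted p under 0.05 and 0 called by DESeq2, beside 11.8% of tested names called. The differences of miR-17-5p, miR-18a-5p, miR-20a-5p and miR-92a-3p were smaller than their standard errors.

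**Figure D2:**
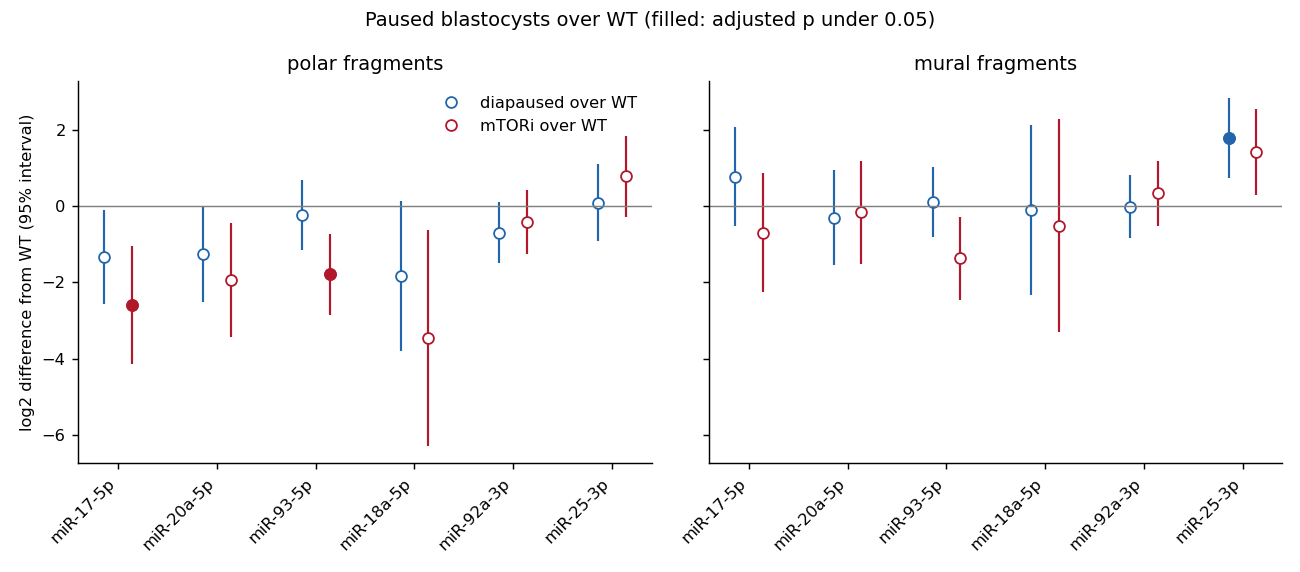
Log2 difference from WT (vertical axis) for each member in polar (left) and mural (right) fragments, diapaused over WT in blue and mTORi over WT in red. Bars are 95% intervals of the edgeR fit, and filled points passed an adjusted p of 0.05. Filled points are miR-17-5p and miR-93-5p for polar mTORi and miR-25-3p for mural diapaused.

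The comparison of diapaused with WT blastocysts asks the same of natural pausing. A single member passed the test, miR-25-3p, which rose in mural fragments to 2116 ± 536 CPM in diapaused, against 592 ± 177 CPM in WT libraries (SD, n = 3 and 2). In polar fragments no member was called, although 4 of the 6 were lower in every diapaused library than in both WT libraries (17.6% of tested names). The diapaused and mTORi comparisons use the same WT libraries, so their values are not independent of each other.

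The log2 difference of miR-25-3p in mural fragments was 1.79 (SE 0.49, 95% interval 0.75 to 2.83, edgeR adjusted p = 0.032), a level 3.46-fold higher. The 1 called member compares with 9.8% of tested names called and 7.84% called higher. The call was kept only with the replicate number as a block, and was lost in the 11 other fits, each library of the comparison left out in turn included, with log2 differences of 1.46 to 2.08. For miR-17-5p the mural log2 difference was 0.78 (SE 0.61, adjusted p = 0.608). Both strands were above WT in all diapaused libraries, as were 32.4% of tested names. The other 4 mural differences were smaller than their standard errors.

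In polar fragments the log2 differences of diapaused over WT were -1.32 for miR-17-5p (SE 0.59, edgeR adjusted p = 0.159) and -1.26 for miR-20a-5p (SE 0.60, adjusted p = 0.19). They were -1.84 for miR-18a-5p (SE 0.93, adjusted p = 0.241) and -0.69 for miR-92a-3p (SE 0.39, adjusted p = 0.273). With 0 members called by edgeR, 1 member at an unadjusted p under 0.05 and 0 called by DESeq2, the background was 7.84% of tested names called. The 4 members of miR-17/92 were below WT in every library, as were 17.6% of tested names, with miR-18a-5p tested only through its polar WT counts. For miR-93-5p and miR-25-3p, from miR-106b/25, the libraries overlapped and the differences were smaller than their standard errors. Averaged over both pieces, 0 members were called by edgeR or DESeq2 (18.6% of tested names by edgeR), with 1 at an unadjusted p under 0.05, miR-25-3p, at 0.94 (SE 0.34, edgeR adjusted p = 0.0693). The averaged differences were -0.96 for miR-18a-5p (SE 0.72, adjusted p = 0.47), -0.78 for miR-20a-5p (SE 0.42, adjusted p = 0.25) and -0.35 for miR-92a-3p (SE 0.27, adjusted p = 0.479), and smaller than the standard error for miR-17-5p and miR-93-5p.

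The pieces were also compared for the size of the treatment effect. For the diapaused effect, polar minus mural, the difference was -2.10 for miR-17-5p (SE 0.85, edgeR adjusted p = 0.352) and -1.70 for miR-25-3p (SE 0.69, adjusted p = 0.352). It was -1.74 for miR-18a-5p (SE 1.43, adjusted p = 0.666), -0.96 for miR-20a-5p (SE 0.85, adjusted p = 0.709) and -0.69 for miR-92a-3p (SE 0.55, adjusted p = 0.666), and smaller than its standard error for miR-93-5p. For the mTORi effect it was -1.90 for miR-17-5p (SE 1.09, adjusted p = 0.517) and -1.79 for miR-20a-5p (SE 0.97, adjusted p = 0.498). It was -2.95 for miR-18a-5p (SE 2.04, adjusted p = 0.565), which rests on 2 counts in polar mTORi libraries, and -0.76 for miR-92a-3p (SE 0.57, adjusted p = 0.587), and smaller than its standard error for miR-93-5p and miR-25-3p. Of the members, 0 were called in either by edgeR or DESeq2, with 2 and 0 at an unadjusted p under 0.05, and 0% of tested names were called. The effects of pausing were not shown to differ between the pieces for any member.

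Diapaused and mTORi blastocysts were compared directly, without the WT libraries. In polar fragments miR-93-5p was higher in diapaused libraries, with a mean of 4840 ± 1284 CPM in diapaused and 1591 ± 671 CPM in mTORi libraries (SD, n = 3 each). The log2 difference was 1.57 (SE 0.45, edgeR adjusted p = 0.027), a level 2.97-fold higher. It was the only called member, beside 15.7% of tested names called and 7.84% called higher. The call was lost without polar mTORi replicate 3 (log2 difference 1.37, adjusted p = 0.103) and in 5 other fits (adjusted p up to 0.133). In polar fragments miR-17-5p differed by 1.27 (SE 0.69, adjusted p = 0.232) and miR-25-3p by -0.70 (SE 0.40, adjusted p = 0.267). For miR-20a-5p the difference was 0.68 (SE 0.66, adjusted p = 0.525), and for miR-92a-3p it was smaller than its standard error. For miR-18a-5p, 31 counts in diapaused against 2 in mTORi libraries gave a ratio of scaled counts of 3.48 (exact 95% interval 0.886 to 30.0, counting error only; edgeR adjusted p = 0.447). All diapaused libraries were above all mTORi libraries for miR-17-5p and miR-93-5p, as for 21.6% of tested names, and below for miR-25-3p, as for 10.8%.

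In mural fragments miR-93-5p averaged 2828 ± 307.5 CPM in diapaused and 1019 ± 412 CPM in mTORi libraries, or 1.47 on the log2 scale (SE 0.47, edgeR adjusted p = 0.0687). For miR-17-5p the means were 2035 ± 509 CPM in diapaused and 690.4 ± 449 CPM in mTORi libraries, a log2 difference of 1.48 (SE 0.64, adjusted p = 0.166). Both were above mTORi in every diapaused library, as were 29.4% of tested names, and the other 4 differences were smaller than their standard errors. With 2 members at an unadjusted p under 0.05, 0 were called by edgeR or DESeq2, and 0.98% of tested names were called.

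The neighbours miR-93-5p and miR-25-3p, cut from the same primary transcript, were set against each other within each library, a comparison that needs no scaling between libraries. It was chosen after the values had been seen and is given without a test. In polar fragments the counts of miR-93-5p and miR-25-3p were 51 and 37, 52 and 20, and 62 and 18 in diapaused, 6 and 9, 2 and 7, and 5 and 11 in mTORi, and 11 and 4, and 27 and 9 in WT libraries. In mural fragments they were 25 and 15, 51 and 38, and 34 and 30 in diapaused, 5 and 7, 2 and 7, and 4 and 4 in mTORi, and 13 and 3, and 27 and 6 in WT libraries. Counts of miR-93-5p exceeded those of miR-25-3p in 6 of 6 diapaused, 0 of 6 mTORi and 4 of 4 WT libraries. The share of miR-93-5p in the sum of both was 53.1% to 77.5% in diapaused, 22.2% to 50.0% in mTORi and 73.3% to 81.8% in WT libraries. The mTORi values rest on 24 counts of miR-93-5p and 45 of miR-25-3p in 6 libraries.

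**Figure D3:**
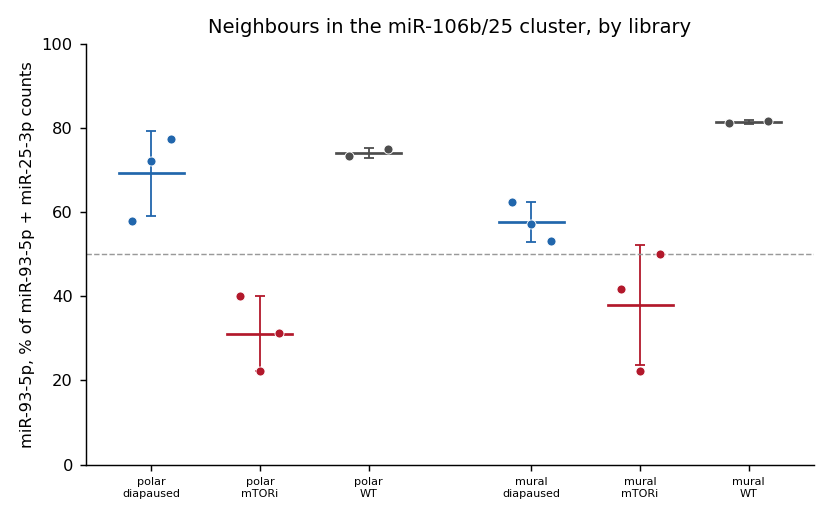
Share of miR-93-5p in the summed counts of miR-93-5p and miR-25-3p (vertical axis, %) in each library (points), with group means (lines) and 1 SD (bars; n = 3 diapaused, 3 mTORi, 2 WT). The dashed line marks equal counts, and the mTORi libraries lie at or below it while diapaused and WT libraries lie above it.

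The comparison of polar with mural fragments asks where the clusters are more abundant. Averaged over the treatments, miR-92a-3p, miR-25-3p and miR-93-5p were higher in polar fragments. Within a single treatment no member passed the test, although all 6 were higher in both polar WT libraries than in both mural WT libraries (26.5% of tested names). Whether polar and mural libraries with the same number share embryos is not stated in the labels.

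The averaged log2 difference of polar over mural was 0.89 for miR-92a-3p (SE 0.22, edgeR adjusted p = 0.00628), a level 1.85-fold higher. It was called in all 23 other fits, where the adjusted p was at most 0.0412. The difference was 0.88 for miR-25-3p (SE 0.27, adjusted p = 0.0213) and 0.84 for miR-93-5p (SE 0.28, adjusted p = 0.0324). These 3 called members, all higher, compare with 27.5% of tested names called and 12.7% called higher. The call of miR-25-3p was lost in 7 and that of miR-93-5p in 11 of the other fits, both without the filter on low counts and both with polar and mural libraries of a number paired. The median difference was 0.85 over the members and 0.03 over all tested names. The members' median includes miR-18a-5p, which was tested only through its polar WT counts. Here miR-17-5p differed by 0.64 (SE 0.40, edgeR adjusted p = 0.271) and miR-18a-5p by 0.86 (SE 0.79, adjusted p = 0.51), with miR-20a-5p within its standard error. Without polar mTORi replicate 3 the miR-93-5p difference was 0.80 (adjusted p = 0.0542), and without polar WT replicate 2 it was 0.71 (adjusted p = 0.137) and that of miR-25-3p 0.80 (adjusted p = 0.139).

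In WT blastocysts miR-92a-3p averaged 12261 ± 3946 CPM in polar and 4669 ± 6.68 CPM in mural libraries (SD, n = 2 each), or 1.37 on the log2 scale (SE 0.44, edgeR adjusted p = 0.0515). The differences were 1.98 for miR-17-5p (SE 0.69, adjusted p = 0.0774), 1.66 for miR-25-3p (SE 0.59, adjusted p = 0.0774) and 1.08 for miR-93-5p (SE 0.50, adjusted p = 0.171). They were 2.42 for miR-18a-5p (SE 1.13, adjusted p = 0.176) and 1.09 for miR-20a-5p (SE 0.67, adjusted p = 0.359). All 6 members were above mural in both polar libraries, as were 26.5% of tested names, with miR-18a-5p tested only through its polar WT counts. At an unadjusted p under 0.05 there were 5 members, while edgeR called 0 (10.8% of tested names called) and DESeq2 called 2, miR-17-5p and miR-92a-3p. RLE or library size scaling each called miR-92a-3p, as did the replicate number as a block. With polar and mural libraries of a number paired, miR-17-5p and miR-92a-3p were called.

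In diapaused blastocysts miR-92a-3p differed by 0.68 (SE 0.34, edgeR adjusted p = 0.183) and miR-93-5p by 0.76 (SE 0.37, adjusted p = 0.177) between polar and mural libraries. Both were above mural in every polar library, as were 18.6% of tested names, and the other 4 differences were smaller than their standard errors. Of the members, 0 were called by edgeR, with 0 at an unadjusted p under 0.05, beside 18.6% of tested names called, and DESeq2 called 2, miR-92a-3p and miR-93-5p. In mTORi blastocysts miR-25-3p differed by 1.03 (SE 0.44, edgeR adjusted p = 0.21) and was the only member above mural in every polar library, as were 13.7% of tested names. For miR-92a-3p the difference was 0.61 (SE 0.37, adjusted p = 0.335) and for miR-93-5p 0.66 (SE 0.55, adjusted p = 0.539), and the other 3 were smaller than their standard errors. There 0 members were called by edgeR or DESeq2, with 1 at an unadjusted p under 0.05, beside 4.9% of tested names called.

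Summed over the library, the 6 members held 2.05% ± 0.366 of counts in polar diapaused, 1.49% ± 0.127 in polar mTORi and 3.37% ± 0.906 in polar WT libraries. In mural libraries they held 1.11% ± 0.0682 in diapaused, 1.08% ± 0.173 in mTORi and 1.16% ± 0.149 in WT blastocysts (SD, n = 3, 3 and 2). The mural groups lay within their spread of each other, and polar WT libraries held the largest shares of all, at 2.73% and 4.01%. The 4 miR-17/92 members held 1.30% of counts in polar diapaused, 1.04% in polar mTORi and 2.58% in polar WT libraries. The 2 miR-106b/25 members held 0.749% in polar diapaused, 0.453% in polar mTORi and 0.794% in polar WT libraries. Shares are of all counts and move with the miR-290/miR-295 cluster, which is linked to pluripotent cells but was abundant in both pieces. Without its counts in the denominator the 6 members held 3.55% in polar diapaused, 2.43% in polar mTORi and 7.12% in polar WT libraries, in the same order. The mural shares were then 2.10% to 2.27% in diapaused, 1.55% to 2.04% in mTORi and 2.16% to 2.54% in WT libraries. With that denominator every mural mTORi library lay below every other mural library, unlike with all counts.

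Within the 6 members, the AAAGUGC strands held 12.8% to 31.2% of the members' counts in polar mTORi and 22.5% to 38.5% in mural mTORi libraries. Their share was 36.8% to 54.5% in diapaused and 41.4% to 51.9% in WT libraries of both pieces. The polar mTORi libraries did not overlap the diapaused or WT libraries, and the mural mTORi libraries overlapped the lowest polar diapaused library. In polar mTORi libraries miR-92a-3p alone held 50.0% to 59.6% of the members' counts, against 34.1% to 41.4% in polar WT libraries.

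**Figure D4:**
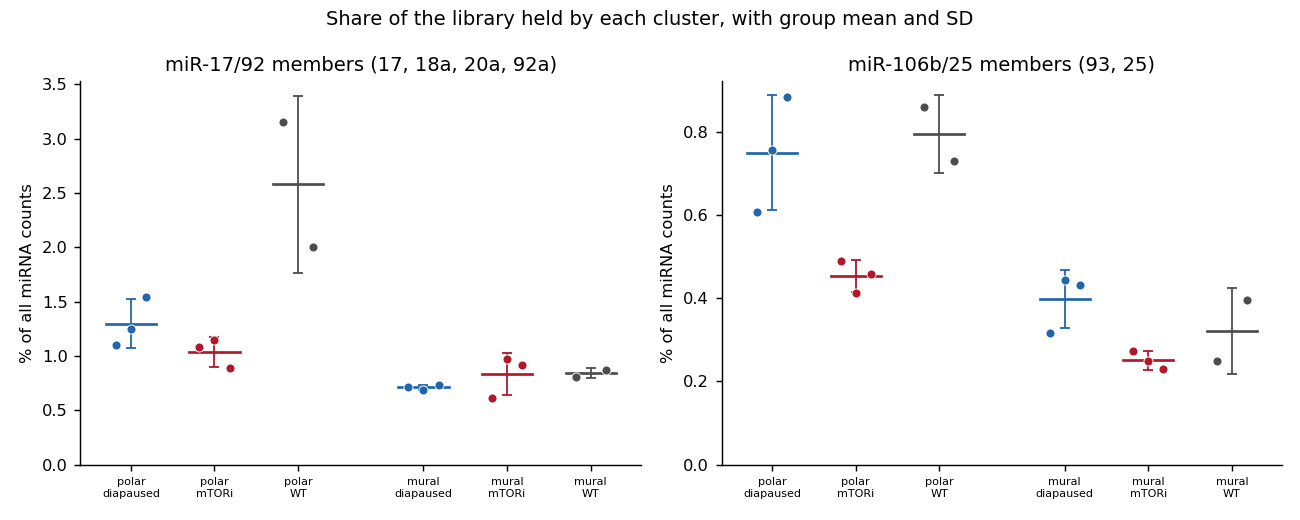
Share of all miRNA counts (vertical axes, %) held by the 4 miR-17/92 members (left) and the 2 miR-106b/25 members (right) in each library (points), with group means (lines) and 1 SD (bars). Polar WT libraries hold the largest miR-17/92 shares, and mTORi libraries hold smaller miR-106b/25 shares than diapaused libraries of the same piece.

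The other 12 mature products of the 2 clusters did not pass the filter on low counts and were not tested. Of these, miR-106b-5p, the third guide strand of its cluster and an AAAGUGC strand, was the most frequent with 99 counts. It had 56 counts in polar diapaused, 4 in polar mTORi and 9 in polar WT libraries, and 21 in mural diapaused, 2 in mural mTORi and 7 in mural WT libraries. All counts of these groups, in the same order, were 33059, 8746 and 6684 for polar and 47472, 11489 and 14801 for mural libraries. The miR-106b-5p counts are not scaled for that depth, so a larger count in diapaused libraries is not a higher level. The miR-19 strands had 39 counts for miR-19a-3p and 1 for miR-19b-3p, which is encoded at 2 loci. The sources used here do not say how reads matching several loci were counted, so the low count of miR-19b-3p is not read as a low level. Passenger strands were scarce, with 28 counts of miR-106b-3p, 16 of miR-17-3p, 13 of miR-25-5p and 7 of miR-93-3p. By total count the described strand led in each hairpin, -5p for Mir17, Mir18, Mir20a, Mir93 and Mir106b and -3p for Mir25.

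Across the 16 libraries the levels of the members were loosely correlated. Pearson's r between log2 CPM values ranged from -0.32 for miR-20a-5p with miR-25-3p to 0.63 for miR-17-5p with miR-93-5p, with a median of 0.32 over 15 pairs and of 0.02 over all pairs of tested names. The neighbours miR-93-5p and miR-25-3p had an r of -0.06. These values describe libraries that share groups, depth and scaling, and they carry no test. Many levels rest on few counts, and counting error weakens r, so a low r is not read as a lack of shared change. By the same measure the tested names outside the clusters with the pattern most like the members' mean were miR-340-5p (r = 0.89), miR-191-5p (r = 0.72) and miR-672-5p (r = 0.71), of 96 names over 16 libraries.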

How the data were processed

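Small RNA libraries were made with adapters holding unique molecular identifiers and 12 to 20 PCR cycles, without size selection, and read as 75 nt reads, per the labels' protocols. The deposited values are whole-number counts per mature miRNA name, without normalization. Build GRCm38 comes from the submitters' processing notes. The sources used here do not name the aligner or the miRNA annotation or say whether identifiers were collapsed, so intervals and limits from 3 counts cover counting error only. Groups came from the tissue and treatment labels. Titles of the 3 mural mTORi libraries also contain "diapaused" and omit the piece, but these labels and the file headers place them as mural mTORi.

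Counts were analysed with edgeR 4.0.16 in R 4.3.3. The function filterByExpr (minimum count 10, minimum total 15) kept 102 names, with 92.8% to 97.6% of each library's counts. Among the members, miR-18a-5p was kept only through its polar WT counts. After TMM scaling, quasi-likelihood models with 1 mean per group (6 groups) were fitted to all 16 libraries (10 residual degrees of freedom), with 14 contrasts. Tests were two-sided, p-values were Benjamini-Hochberg adjusted over the 102 names of a contrast, and an adjusted p under 0.05 was a call. A log2 difference is the fitted one, its SE comes from the F statistic, and log2 CPM used a prior count of 2. The procedure was tested on simulated data. Alternatives were DESeq2 1.42.0, other scalings and filters, smaller fits, replicate blocks and leaving out each library. The labels do not say that a replicate number marks shared embryos or a batch.

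All 6 members are covered in every comparison, by name or among the others whose differences were smaller than their standard errors. The most frequent other products of both clusters are given by count, and those of miR-106a/miR-363 as a sum. The members, lists and tests were chosen with earlier results of these data known. Sequences came from RefSeq by name, and all 6 members matched.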

Additional observations from a re-analysis of the deposited data

Results flagged for a closer look

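For miR-17-5p the diapaused libraries lay on opposite sides of WT in the 2 pieces. In polar fragments all 3 diapaused libraries were below both WT libraries, and in mural fragments all 3 were above both WT libraries. The difference between the effects, polar minus mural, was -2.10 on the log2 scale (SE 0.85), with an unadjusted p of 0.0242 and an adjusted p of 0.352 in edgeR's quasi-likelihood test, so it did not pass the threshold.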

How the results depend on the processing

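Of the 84 member differences, the 55 larger than their standard error were recomputed in each alternative whose filter kept the member, with the scaling repeated in each fit. Outside the fits that leave out a library, 22 values lost a call, 15 gained one, 0 reversed and the rest kept their direction and side of the threshold. On leaving out a library, 40 lost a call, 2 gained one, 3 reversed and 381 kept both. The 3 reversals, none of a called value, were miR-18a-5p in polar over mural averaged (-0.56 to 2.42, lowest without polar mTORi replicate 3), miR-20a-5p in polar diapaused over mTORi (-0.03 to 1.63, lowest without polar mTORi replicate 3) and miR-18a-5p in the mTORi effect polar minus mural (-7.05 to 1.89, highest without mural mTORi replicate 2); the cause was not tested. Members called in mural diapaused over WT numbered 1, and 0 with RLE scaling (DESeq2's size factors), library size alone, no filter, a stricter filter, DESeq2 or only the groups compared, and 0 on leaving out any library. In polar mTORi over WT they numbered 2, and 1 without the filter, 3 with RLE or library size, 4 with DESeq2, 0 with only the groups compared and 0 to 3 on leaving out a library (0 without polar mTORi replicate 3 or either polar WT library). In mTORi over WT averaged they numbered 3, and 1 with only the groups compared, 1 with the replicate block by number and 1 to 4 on leaving out a library (1 without either polar WT library or mural WT replicate 1). In mTORi over WT averaged, library size alone, no filter and DESeq2 each also lost the miR-25-3p call and kept those of miR-17-5p and miR-93-5p. In polar over mural WT the called members numbered 0, and 1 with RLE, library size or the replicate block by number, 2 with DESeq2 and 2 with the block by polar and mural pair. In polar over mural diapaused they numbered 0, and 2 with library size or DESeq2. Averaged over treatments they numbered 3, and 1 without the filter, 1 with the block by pair and 1 to 3 on leaving out a library (1 without polar mTORi replicate 2 or any WT library). In polar diapaused over mTORi they numbered 1, and 0 without the filter, 0 with only the groups compared and 0 to 1 on leaving out a library (0 without polar diapaused replicates 2 or 3 or polar mTORi replicates 2 or 3). The remaining counts of called members were 0 in every fit. Same-numbered polar and mural libraries deviated together with r of -0.01 for diapaused replicate 2 and 0.11 to 0.36 for the others. These values do not settle whether same-numbered libraries share embryos. The main fits did not pair them, and the block by pair is an alternative that changed calls as given above. Library size scaling moved the median of all tested names by 0.48 in polar over mural diapaused, where 86.7% of calls were higher against 26.3% with TMM, and the lone library left by omitting a WT library is assumed to vary like the other groups. Low totals limit the precision, and miR-18a-5p in polar mTORi libraries rests on 2 counts.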
